A study of Mus musculus with 6 samples.

Results

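The genes described here are 30 genes of microglia, the resident macrophages of the brain, together with the complement genes these cells make. They were picked by name from the merged gene table, which held 55421 genes, and all 30 were present. The hippocampus was taken from male C57BL/6N wild-type mice aged 8 to 10 weeks, and its polyadenylated RNA was sequenced in bulk. The 3 libraries of the SP group came from mice that received substance P (SP), a neuropeptide of sensory nerves, by subcutaneous injection at 10 µM in 100 µL over 14 days, and the 3 of the vehicle group from mice that received saline. The comparison asked whether microglial transcripts in the hippocampus differed after repeated peripheral SP. Each group comprised 3 mice. A positive change means a higher level in the SP-labelled group. The sources used here do not settle the sign of this contrast: the direction of the printed differences rests on the labels of the columns, and were the labels exchanged, every sign would turn while sizes and tests would stay. This holds for the microglial genes and for the cell type markers alike. In bulk tissue, fewer cells of a type and less RNA per cell cannot be told apart.

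Microglia survey the tissue through receptors such as CX3CR1, which binds the neuronal ligand fractalkine, and P2RY12, which senses nucleotides, and they depend on signals through CSF1R to survive. They are the main source of C1q in the brain, the recognition molecule of the classical complement pathway. C1q can tag synapses, and microglia carrying complement receptor 3, whose alpha chain is encoded by *Itgam*, can then engulf them, a process known in development and in disease models. TYROBP (also DAP12) is the adaptor through which TREM2 and related receptors signal, by its immunoreceptor tyrosine-based activation motif (ITAM).

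The transcription factor encoded by *Spi1* is a main regulator of myeloid genes, and it binds sites with a purine-rich core. The letters GAGGAAG, or CTTCCTC on the opposite strand, were therefore searched in the 250 bases upstream of each annotated start in RefSeq (GRCm38.p6). They were present in 3486 of 32851 windows of the same length (10.6%), and in 7 of the 27 windows that belonged to 23 of the genes. The 7 genes were *C1qc*, *Cd33*, *Fcrls*, *Itgam*, *Laptm5*, *P2ry13* and *Trem2*. A match describes these letters only. Below are the windows of a purinergic receptor, a complement receptor chain and an ITAM-coupled receptor that hold the letters, and that of a C1q chain that does not, so that the main roles of the list are represented. Each is written 5′ to 3′ on the strand of the gene, with the searched letters in capitals, and lies at chr3:59210883-59211132 (minus strand, *P2ry13*), chr7:128062390-128062639 (plus strand, *Itgam*), chr17:48346151-48346400 (plus strand, *Trem2*) and chr4:136886201-136886450 (minus strand, *C1qb*).
P2ry13: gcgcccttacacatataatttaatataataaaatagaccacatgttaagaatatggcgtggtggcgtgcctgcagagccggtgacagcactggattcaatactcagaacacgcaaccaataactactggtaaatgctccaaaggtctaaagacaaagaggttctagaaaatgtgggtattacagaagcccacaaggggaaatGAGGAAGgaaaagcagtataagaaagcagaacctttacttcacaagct
Itgam: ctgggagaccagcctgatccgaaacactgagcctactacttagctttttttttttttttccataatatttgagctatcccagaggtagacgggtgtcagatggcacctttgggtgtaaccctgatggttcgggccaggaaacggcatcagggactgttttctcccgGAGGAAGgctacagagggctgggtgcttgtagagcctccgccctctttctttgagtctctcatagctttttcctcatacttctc
Trem2: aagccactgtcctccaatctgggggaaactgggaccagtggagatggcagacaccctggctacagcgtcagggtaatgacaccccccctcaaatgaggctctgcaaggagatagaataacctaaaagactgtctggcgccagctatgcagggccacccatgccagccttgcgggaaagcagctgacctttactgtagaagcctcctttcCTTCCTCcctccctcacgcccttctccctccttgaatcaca
C1qb: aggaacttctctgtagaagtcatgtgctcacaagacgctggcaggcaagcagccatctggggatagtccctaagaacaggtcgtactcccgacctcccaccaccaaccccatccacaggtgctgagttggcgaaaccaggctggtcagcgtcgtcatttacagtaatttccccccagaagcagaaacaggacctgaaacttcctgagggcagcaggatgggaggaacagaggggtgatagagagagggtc

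The 6 libraries held 22349964 to 27605935 estimated counts each, so that 3 counts corresponded to 0.109 to 0.135 CPM (counts scaled by library size). Summed neuron markers were high in every library, at 8724, 8756 and 8997 CPM in vehicle and 9425, 10203 and 8981 CPM in SP. These sums overlapped between the groups. For 3 of the 8 neuron markers every SP library lay above every vehicle library, beside 9.19% of all tested genes, and 0 showed the reverse. The libraries also differed in other cell types. The 7 choroid plexus markers summed to 3791 to 4726 CPM in the vehicle libraries, and to 174, 2791 and 3949 CPM in SP libraries 1, 2 and 3. The 12 oligodendrocyte markers summed to 4397 to 4934 CPM in the vehicle libraries and 5046 to 7218 CPM in the SP libraries, with SP library 2 highest. The summed level of the 30 microglial genes was 533, 541 and 562 CPM in the vehicle libraries (545 ± 14.9, SD) and 565, 561 and 525 CPM in the SP libraries (550 ± 21.8, SD), so the groups overlapped.

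All 30 genes were measured well above the floor, with a mean of 63.5 counts per library for *Spi1* to 1899 for *Csf1r*. Divided by the length of the longest coding transcript, the highest levels over the 6 libraries were those of *Ctss* (34.2 ± 2.14 CPM per kb, SD), encoding the lysosomal protease cathepsin S, and of the C1q chains *C1qb* (33.1 ± 0.837), *C1qa* (32.0 ± 1.54) and *C1qc* (27.4 ± 1.92). *Csf1r* (16.6 ± 0.792), *Tyrobp* (15.4 ± 2.32) and *P2ry12* (14.1 ± 0.65) came next, and *Spi1* (1.29 ± 0.204) and *Ptprc* (0.639 ± 0.064), encoding the leukocyte antigen CD45, were lowest. Most neighbours in this order overlapped between libraries. For 6 of 29 neighbouring pairs, the lowest library of the upper gene lay above the highest library of the lower gene. They were *C1qa* above *C1qc*, *C1qc* above *Csf1r*, *P2ry12* above *Selplg*, *Lyz2* above *Gpr34*, *Cd53* above *Apbb1ip*, and *Spi1* above *Ptprc*. The order of the top 4 was the same when the union of all exons was taken as the length, whereas *Trem2* moved from rank 10 to rank 25.

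**Figure D1:**
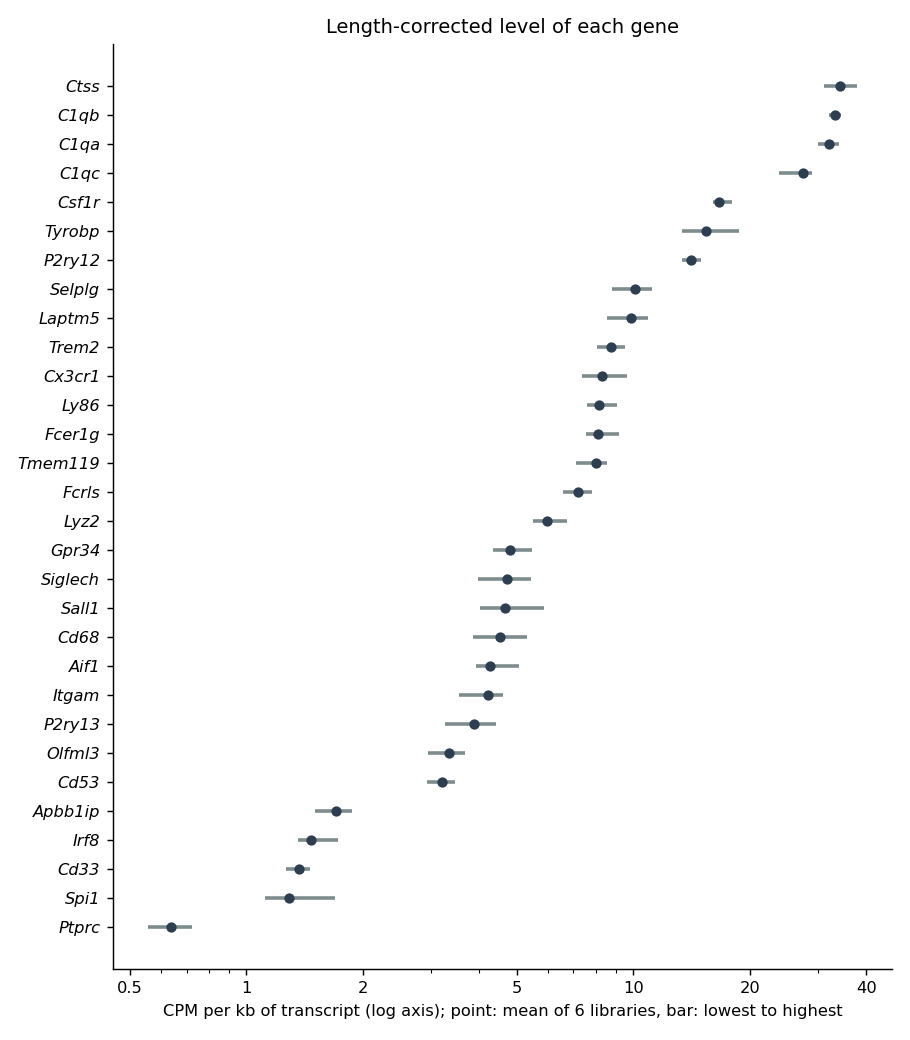
Level of each of the 30 genes in CPM per kb of the longest coding transcript (log axis), with a point at the mean of the 6 libraries and a bar from the lowest to the highest library. *Ctss* and the 3 C1q chains lie highest, from 34.2 to 27.4, and *Ptprc* lowest at 0.639.

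No gene of the 30 passed the thresholds for a differentially expressed gene (DEG), a false discovery rate (FDR) under 0.1 in edgeR's quasi-likelihood test with an absolute log2 fold change (log2FC) over 0.3, which 5 of 17069 tested genes did (0.0293%). At an unadjusted p under 0.05, 1 of the 30 genes was found by edgeR and 0 by DESeq2 with the same replicate term, against 10.1% of all tested genes with edgeR and 4.13% with DESeq2. The lowest FDR among the 30 was 0.424. Fold changes were centred on 0, with a median log2FC of 0.0035 over the 30 genes and 0.0015 over all tested genes, and 16 were positive and 14 negative. They ranged from -0.17 for *Olfml3* to 0.32 for *Tyrobp*.

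The edgeR fit bounded the size of any change. Its 95% confidence interval of each gene, taken separately, lay within 1.5-fold either way for all 30 genes. The share over all tested genes was 72.6% (87.6% within 2-fold), and 29 of the 30 intervals contained 0. No intervals were computed from DESeq2, so the bound holds for edgeR's standard errors only. With the replicate term, DESeq2 gave *Tyrobp* a log2FC of 0.32 and an unadjusted p of 0.139, against 0.0204 in edgeR. The median standard error of the log2FC was 0.106 over the 30 genes and 0.0906 over all tested genes. The vehicle and SP libraries overlapped in CPM for 28 genes. The groups were apart for 1 gene higher in SP, *Tyrobp* (background 9.19%), and for 1 gene lower in SP, *Olfml3* (background 9.03%), 2 of 30 where 18.2% of all tested genes had groups that did not overlap.

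**Figure D2:**
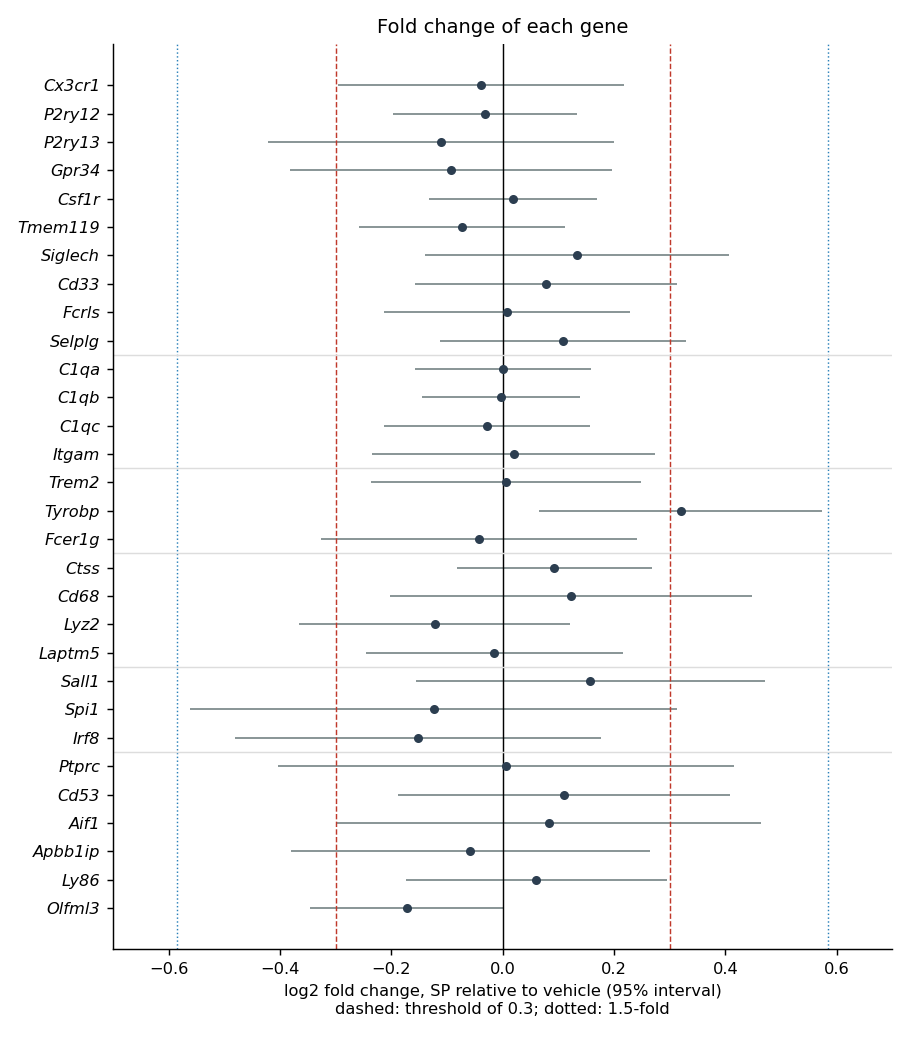
The log2FC (SP relative to vehicle) of each of the 30 genes from the edgeR fit, with bars for the 95% confidence interval, genes grouped by role, dashed lines at 0.3 and dotted lines at 1.5-fold. The intervals of 29 genes cross 0, and that of *Tyrobp* runs from 0.066 to 0.57.

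**Figure D3:**
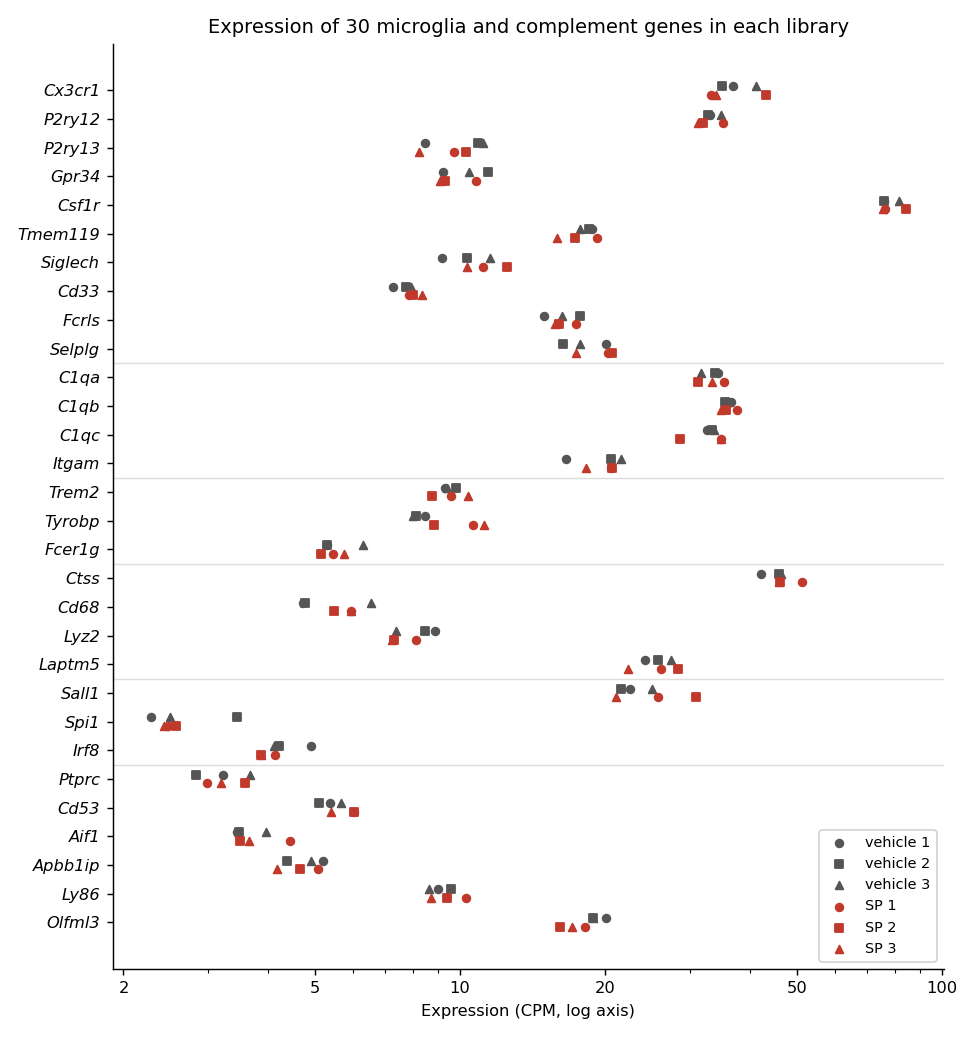
CPM of the 30 genes (log axis) in each library, with grey points for vehicle and red points for SP, a shape for each replicate number, and grey lines between roles. The groups overlap for every gene except *Tyrobp*, higher in SP, and *Olfml3*, lower in SP.

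The surface receptors that define homeostatic microglia had a median log2FC of -0.012 over 10 genes, and none was at an unadjusted p under 0.05 in edgeR. The fractalkine receptor gene *Cx3cr1* was at 36.9, 35.0 and 41.1 CPM in vehicle and 33.2, 43.2 and 34.0 CPM in SP. The SP libraries held both its highest and its lowest values, and its log2FC was -0.039 (SE 0.110). The purinergic receptor gene *P2ry12*, often used to tell microglia from other macrophages, was at 33.0, 32.7 and 34.8 CPM in vehicle and 35.1, 32.0 and 31.3 CPM in SP. The spread of *P2ry12* was narrow and the groups overlapped, with a log2FC of -0.031 (SE 0.0705) and an interval of -0.20 to 0.13. The related receptor gene *P2ry13* was at 8.47, 10.9 and 11.2 CPM in vehicle and 9.72, 10.3 and 8.22 CPM in SP (log2FC -0.11, SE 0.133).

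*Csf1r*, the receptor on which microglial survival depends, was at 75.8, 75.9 and 81.5 CPM in vehicle and 76.3, 84.3 and 75.7 CPM in SP. Its interval was among the narrowest, with a log2FC of 0.019 (SE 0.0642) between -0.13 and 0.17. *Tmem119*, a membrane protein gene used as a microglial marker, was at 18.8, 18.5 and 17.7 CPM in vehicle and 19.2, 17.3 and 15.9 CPM in SP (log2FC -0.072, SE 0.0790). SP library 1 was its highest library and SP library 3 its lowest. The sialic acid-binding lectin genes had positive values, *Siglech* with a log2FC of 0.13 (SE 0.116) and *Cd33* with 0.078 (SE 0.101). *Cd33* was higher in SP in 3 of 3 pairs of equal replicate number, although its groups overlapped at 7.26 to 7.91 CPM in vehicle and 7.84 to 8.35 CPM in SP. *Gpr34*, a lysophospholipid receptor gene, had a log2FC of -0.093 (SE 0.124), the Fc receptor-like gene *Fcrls* 0.0072 (SE 0.0943), and the P-selectin ligand gene *Selplg* 0.11 (SE 0.0942).

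Of the roles, the complement genes had the lowest median SE of the log2FC (0.0734), and the median log2FC of the 4 genes was -0.0011. The 3 genes of the C1q chains lie side by side on the minus strand of chromosome 4, within 18.675 kb at chr4:136880129-136898803 (GRCm38, GENCODE M21), in the order *C1qb*, *C1qc* and *C1qa* by coordinate. *C1qa* was at 34.3, 33.8 and 31.6 CPM in vehicle and 35.3, 31.2 and 33.3 CPM in SP, with a log2FC of 0.00045 (SE 0.0676) and an interval of -0.16 to 0.16. *C1qb* was at 36.5, 35.6 and 36.1 CPM in vehicle and 37.5, 35.7 and 34.8 CPM in SP, with a log2FC of -0.0027 (SE 0.0604). The highest and the lowest *C1qb* values were both SP libraries. *C1qc* was at 32.6, 33.4 and 33.7 CPM in vehicle and 34.8, 28.6 and 34.8 CPM in SP, with a log2FC of -0.028 (SE 0.0792), and SP library 2 lay below the other 5.

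The ratio of the chains within a library, in CPM per kb, was also close between the groups. *C1qa* over *C1qb* was 0.964 ± 0.0424 (SD) in vehicle and 0.966 ± 0.0464 in SP, and *C1qc* over *C1qb* was 0.833 ± 0.0225 in vehicle and 0.821 ± 0.0905 in SP. *Itgam*, the complement receptor chain, was at 16.6, 20.6 and 21.6 CPM in vehicle and 20.5, 20.7 and 18.2 CPM in SP. Vehicle library 1 was lowest and vehicle library 3 highest, and the log2FC was 0.020 (SE 0.108). *Itgam* shares 68.1% of its 31-base words with other annotated genes, mainly the overlapping model *Gm49368*, to which at most 2 counts per library were assigned.

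*Tyrobp* was the gene with the largest log2FC of the 30. It was at 8.47, 8.08 and 7.98 CPM in vehicle (8.18 ± 0.255, SD) and 10.7, 8.84 and 11.2 CPM in SP (10.2 ± 1.24, SD). Every SP library was above every vehicle library, by the smallest margin in SP library 2. The log2FC was 0.32 (SE 0.109), a fold of 1.25 with an interval of 1.05 to 1.49, and the unadjusted p of 0.0204 gave an FDR of 0.424 in edgeR, so the difference failed the correction over all tested genes. With replicate 1, 2 or 3 left out, the log2FC was 0.31, 0.41 and 0.23 and the unadjusted p from edgeR 0.0738, 0.0088 and 0.132.

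Its partner receptor *Trem2*, which binds lipids and lipoproteins, was at 9.33, 9.82 and 9.40 CPM in vehicle and 9.59, 8.76 and 10.4 CPM in SP (log2FC 0.0066, SE 0.104). The SP libraries of *Trem2* spanned the vehicle range on both sides. *Fcer1g*, encoding the other ITAM adaptor of the list, the Fc receptor gamma chain, was at 5.29, 5.29 and 6.28 CPM in vehicle and 5.45, 5.15 and 5.75 CPM in SP (log2FC -0.042, SE 0.121). In CPM per kb, the ratio of *Tyrobp* to *Trem2* was 1.65, 1.5 and 1.55 in vehicle and 2.02, 1.84 and 1.97 in SP, and that of *Tyrobp* to *Fcer1g* was 1.83, 1.75 and 1.45 in vehicle and 2.23, 1.97 and 2.23 in SP. The ratios carry the same *Tyrobp* values and are no separate evidence. The transcript of *Tyrobp* is short, at 597 bases.

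Of the lysosomal and phagocytic genes, *Ctss* was at 42.2, 45.9 and 46.3 CPM in vehicle and 51.3, 46.2 and 45.9 CPM in SP, with SP library 1 highest (log2FC 0.093, SE 0.0749). *Cd68*, a lysosomal membrane protein gene that is commonly raised in phagocytic microglia, was at 4.73, 4.77 and 6.53 CPM in vehicle and 5.92, 5.48 and 5.93 CPM in SP (log2FC 0.12, SE 0.139). The highest *Cd68* value was that of vehicle library 3. The lysozyme gene *Lyz2* was lower in SP in 3 of 3 pairs, at 8.85, 8.45 and 7.37 CPM in vehicle and 8.10, 7.31 and 7.23 CPM in SP, but the groups overlapped (log2FC -0.12, SE 0.104). *Lyz2* shares 32.8% of its 31-base words with other genes, mainly *Lyz1*, which received 1 count in the 6 libraries together. *Laptm5*, a lysosomal transmembrane protein gene, had a log2FC of -0.015 (SE 0.0983).

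The 3 transcription factor genes had the highest median SE of the roles (0.140) and a median log2FC of -0.12. *Sall1*, which maintains microglial identity, was at 22.6, 21.5 and 25.1 CPM in vehicle and 25.7, 31 and 21.1 CPM in SP. SP library 2 was its highest and SP library 3 its lowest library, and the log2FC was 0.16 (SE 0.134). *Spi1* was at 2.28, 3.44 and 2.50 CPM in vehicle and 2.47, 2.57 and 2.42 CPM in SP, and its interval of -0.56 to 0.31 was the widest of the 30 (log2FC -0.12, SE 0.187). Vehicle library 2 lay above the other 5. *Irf8*, an interferon regulatory factor gene needed for microglial development, was lower in SP in 3 of 3 pairs, at 4.90, 4.20 and 4.10 CPM in vehicle and 4.13, 3.86 and 3.86 CPM in SP (log2FC -0.15, SE 0.140). Its groups overlapped, since vehicle library 3 was below SP library 1.

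Among the remaining leukocyte and secreted protein genes, *Olfml3*, encoding a secreted olfactomedin-like protein, was at 20.1, 18.9 and 18.9 CPM in vehicle and 18.2, 16.1 and 17.1 CPM in SP. Each SP library was below each vehicle library, but the interval reached 0, with a log2FC of -0.17 (SE 0.0745, interval -0.35 to 0.0029) and an FDR of 0.5 in edgeR. *Aif1*, which encodes the common microglial stain IBA1, was at 3.44, 3.48 and 3.95 CPM in vehicle and 4.43, 3.49 and 3.64 CPM in SP (log2FC 0.083, SE 0.163). SP library 1 was highest for *Aif1* and the other SP libraries were within the vehicle range. *Ptprc* had a log2FC of 0.0065 (SE 0.175), the tetraspanin gene *Cd53* 0.11 (SE 0.127), *Ly86*, a partner of a Toll-like receptor homologue, 0.060 (SE 0.0999), and *Apbb1ip*, an adaptor of integrin signalling, -0.058 (SE 0.138).

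Within groups, the coefficient of variation ranged from 2.82% for *C1qb* to 16.7% for *Spi1*, with a median of 8.18%. Counting alone would give 2.29% for *Csf1r* to 12.5% for *Spi1*, and the ratio of the observed to the counting value had a median of 1.43. It was under 1.5 for 17 of the 30 genes, including *C1qb* (0.835), *Trem2* (0.958), *Ptprc* (0.994) and *Tyrobp* (1.45). The ratio was highest for *Sall1* (3.70) and *Cx3cr1* (3.67) and lowest for *Cd33* (0.529). The libraries did not share a direction. SP library 1 was the highest library for 8 genes and the lowest for 1, and SP library 3 was the highest for 3 and the lowest for 10. In the 3 pairs of equal replicate number, the median log2 ratio of SP to vehicle over the 30 genes was 0.10, 0.0044 and -0.11, an SD of 0.108 about a centre near 0.

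**Figure D4:**
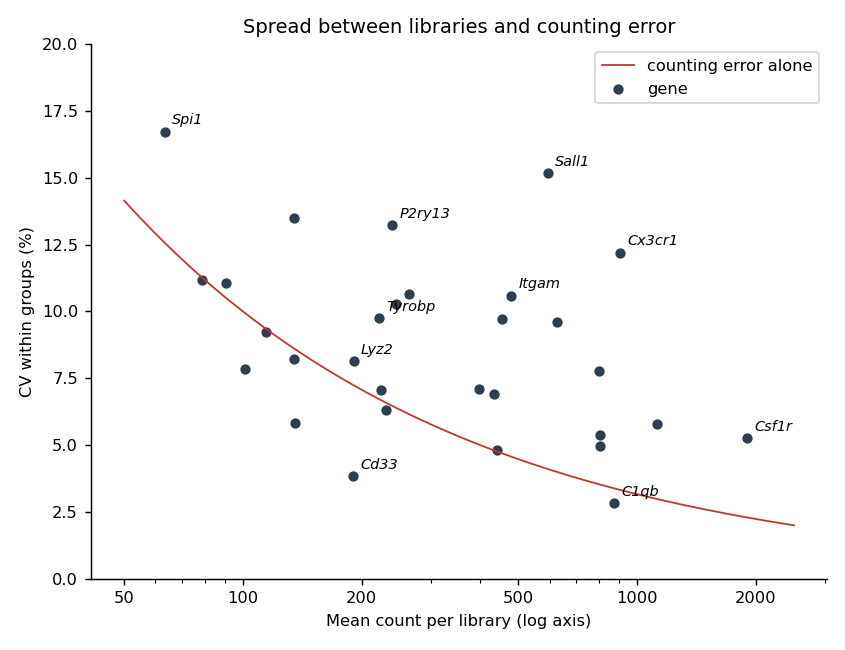
Within-group coefficient of variation (CV) of each gene in percent against its mean count per library (log axis), with a curve for the value that counting alone would give. *Sall1* and *Cx3cr1* lie at 3.70 and 3.67 times the counting value, and *C1qb* has the smallest variation at 2.82%.

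Other genes of the same biology were examined in fixed lists. Of 28 further microglia-enriched genes, 0 were DEGs, 17 had a positive log2FC and 11 a negative one, and the median was 0.071. The groups were apart for 4 of the 28, higher in SP (background 9.19%), and for 1, lower in SP (background 9.03%). At an unadjusted p under 0.05 in edgeR, 0 of the 28 were higher (background 4.48%) and 1 was lower (background 5.59%). The lower gene was *Ltc4s*, encoding leukotriene C4 synthase (log2FC -0.64, FDR 0.462). *Syk*, the kinase downstream of TYROBP, had a log2FC of 0.28 (SE 0.164, FDR 0.606). *Cyth4*, a guanine nucleotide exchange factor gene, had a log2FC of 0.18 (SE 0.0817, FDR 0.520). Of the genes for neuronal and glial ligands of microglial receptors, *Cx3cl1*, encoding fractalkine, was at 504, 492 and 509 CPM in vehicle and 499, 519 and 491 CPM in SP (log2FC 0.0043, SE 0.0558). The CSF1R ligand genes *Csf1* and *Il34* had log2FCs of 0.089 (SE 0.0929) and 0.10 (SE 0.0657). *Cd200*, encoding a neuronal inhibitor of microglia, was at 83.5, 86.4 and 82.3 CPM in vehicle and 70.9, 61.8 and 77.0 CPM in SP. Each SP library was below each vehicle library for *Cd200*, with a log2FC of -0.27 (SE 0.0784) that failed the correction (FDR 0.391). *Gas6*, a bridging ligand of phagocytic receptors, was the other of the 9 ligand genes at an unadjusted p under 0.05 (log2FC -0.22, FDR 0.490 in edgeR). Both were lower in SP, 2 of 9 beside a background of 5.59%.

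Complement genes outside the list had more negative values. Of 27 such genes, 23 were tested, 0 were DEGs, 18 had a negative log2FC and the median was -0.091. At an unadjusted p under 0.05, 4 were lower in SP (background 5.59%) and 0 were higher (background 4.48%), none at an FDR under 0.1 in edgeR. Among them were the inhibitor genes *Cd55* (log2FC -0.40, FDR 0.399) and *Cd59a* (-0.67, FDR 0.432), and the protease gene *C1ra* (-0.53, FDR 0.426), whose product acts with C1q. *Cd59a* was at 11.0, 11.4 and 12.1 CPM in vehicle and 3.75, 7.68 and 11.4 CPM in SP, and *C1ra* at 3.65, 3.27 and 3.63 CPM in vehicle and 2.00, 2.32 and 3.01 CPM in SP. For both, SP libraries 1, 2 and 3 stood in the same order as the summed choroid plexus markers (174, 2791 and 3949 CPM). The part of the choroid plexus in these values was not tested. *Cd59a* was named after its values were seen, and the order in the other complement genes is not given here. *C4b* (log2FC 0.12, SE 0.0887) and *C3* (0.15, SE 0.451) encode the next components of the pathway, and *Itgb2* (-0.099, SE 0.153) the beta chain that pairs with the product of *Itgam*.

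Of 19 genes of disease-associated microglia, a state seen in neurodegeneration models, 16 were tested, 0 were DEGs and the median log2FC was -0.069. In edgeR at an unadjusted p under 0.05, 1 was higher (background 4.48%), the lipoprotein lipase gene *Lpl* (0.23, FDR 0.409). At the same threshold 1 was lower (background 5.59%), the cathepsin D gene *Ctsd* (-0.21, FDR 0.418). *Apoe*, encoding apolipoprotein E, had a log2FC of 0.11 (SE 0.0735). Of 21 inflammatory genes, 13 were tested and 6 were at 3 counts or fewer in every library, among them the cytokine gene *Tnf*, at 0 to 2 counts. *Il1b* was at 6, 3 and 1 counts in vehicle and 0, 0 and 5 counts in SP. The related gene *Il1a* was at 11, 14 and 13 counts in vehicle and 17, 24 and 18 counts in SP (log2FC 0.74, SE 0.301, FDR 0.479 in edgeR), and *Casp1*, encoding the inflammasome protease, at 53, 76 and 91 counts in vehicle and 45, 26 and 48 counts in SP (log2FC -0.77, SE 0.261, FDR 0.424). The groups were apart for both, in opposite directions, and neither passed the correction. Of the 13 tested genes, 2 were apart and higher in SP (background 9.19%) and 3 were apart and lower (background 9.03%).

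Several of the 30 genes are also expressed by other macrophages and leukocytes. Markers of border macrophages summed to 31.4 to 32.5 CPM in vehicle and 25.9 to 30.1 CPM in SP, 10 of 11 tested had a negative log2FC, and the median was -0.37. Their defining markers *Mrc1* (-0.37, FDR 0.596) and *Cd163* (-0.24, FDR 0.804) did not pass the test. At an unadjusted p under 0.05 in edgeR, 1 of the 11 was lower (background 5.59%), and the lowest FDR of these markers was 0.481. The groups were apart for 2 of the 11, lower in SP (background 9.03%). The 16 markers of blood leukocytes summed to at most 2.14 CPM in any library, 8 of them at 3 counts or fewer in every library. Of the 16, the monocyte gene *Ccr2* was at 0.269 to 0.687 CPM, the neutrophil genes *S100a8* and *S100a9* at no more than 0.283 and 0.384 CPM, and the T cell gene *Cd3e* at 0 to 0.254 CPM. The 8 mast cell markers summed to at most 5.01 CPM, with *Cpa3* at no more than 0.399 CPM. The summed level of the 30 genes in each library was at least 525 CPM. As labelled, the 12 oligodendrocyte markers had a median log2FC of 0.35 and the 7 choroid plexus markers of -1.14. The median of the 30 microglial genes was 0.0035. At an unadjusted p under 0.05 in edgeR, 10 of the 12 were higher (background 4.48%) and 3 of the 7 lower (background 5.59%). The groups were apart for 9 of the 12, higher in SP (background 9.19%), and for 2 of the 7, lower in SP (background 9.03%). In both lists 0 were DEGs. The part of these cell types in the microglial values was not tested.

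**Figure D5:**
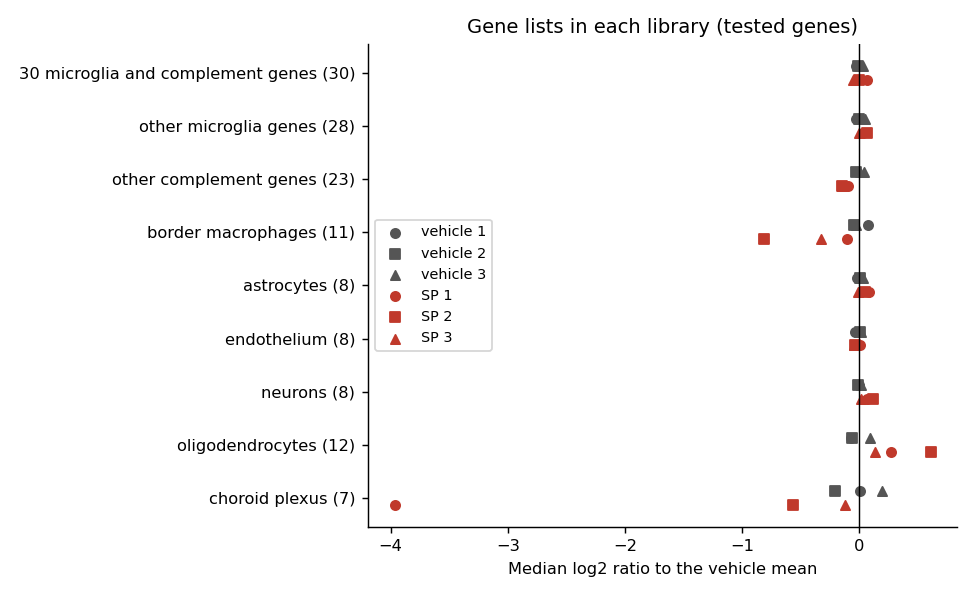
Median log2 ratio of each gene list to the vehicle mean in each of the 6 libraries, after a pseudocount of 0.1 CPM. The 30 microglial genes lie between -0.051 and 0.066 in every library, whereas the choroid plexus markers fall to -3.97 in SP library 1 and the oligodendrocyte markers reach 0.61 in SP library 2.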

How the data were processed

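Hippocampal RNA was extracted with Trizol, made into stranded mRNA libraries (TruSeq) and sequenced. The authors trimmed reads with TrimGalore, aligned them with STAR to GRCm38 and quantified genes with Salmon in a Nextflow pipeline, and deposited a merged table of estimated counts per gene, without normalization. Tool versions and the annotation release are not given in the sources used here. Of the deposited values, 9.77% were not whole, and they were rounded. Genes were filtered with filterByExpr using the design (17069 of 28094 genes with a count were kept), normalized by TMM (factors 0.993 to 1.01) and fitted with edgeR 4.0.16 (R 4.3.3, quasi-likelihood F-test, Benjamini-Hochberg FDR) with group and replicate number as terms. DEGs had an FDR under 0.1 and an absolute log2FC over 0.3. CPM use TMM-scaled library sizes.

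The study's methods adjust for replicates and the labels call the number a batch. What was shared within a batch is not given in the sources used here. The correlation of deviations from the group means was 0.0140, -0.0656 and 0.0734 for replicates 1, 2 and 3. In fits with the replicate term, p-values weigh the group difference against the spread between mice left after that term, with 3 mice per group. Intervals are per gene at 95%, and counting errors treat reads as independent molecules. An exact permutation test of 3 against 3 cannot go below p = 0.1. Scripts were tested on simulated counts. Alternatives were DESeq2 1.42.0, limma 3.58.1 (voom), other scalings and filters, no replicate term, and leaving out each replicate.

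Positions and lengths are from GENCODE M21, and promoter windows from RefSeq. *C1qa*, *Csf1r*, *Gpr34*, *Selplg*, *Spi1*, *Tmem119* and *Tyrobp* had no promoter window. The 30 genes and the lists were chosen with earlier results of these data known. The genes named are all 30, up to 3 of each other list with the smallest unadjusted p, and markers listed for their level. Some genes that the rule covers are not reported here. *Cd59a* falls outside this rule and was named after its values were seen. The promoters printed were chosen after the windows were seen.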

Additional observations from a re-analysis of the deposited data

How the results depend on the processing

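None of the 30 genes was a DEG under any of the settings run, by edgeR, DESeq2 or limma. With the replicate term, DESeq2 gave no FDR for *Fcer1g*, *Cd68*, *Spi1*, *Irf8*, *Ptprc*, *Cd53*, *Aif1* and *Apbb1ip*, so these could not be called there. *Spi1* had no FDR from DESeq2 without the term either. The median log2FC of the 30 genes stayed between -0.041 and 0.064, both ends from leaving out a replicate. Counts over all genes moved far more, against 5 DEGs in the edgeR fit described above. There were 384 with no filter on low counts, 36 with DESeq2 and 133 with DESeq2 and no replicate block, 2 with limma-voom, 0 at an FDR under 0.05, 0 with at least 10 counts in every library, 0 with the filter by group size (chosen after seeing the data), and 9 to 36 without each replicate in turn. On the same 17069 genes, the fit with no replicate block gave 2 DEGs and put 2 of the 30 genes, *Tyrobp* and *Olfml3*, at an unadjusted p under 0.05 (11.9% of all genes), against 1 with the block (10.1%) and 0 with DESeq2 and the block (4.13%). The deviations of same-numbered libraries did not correlate over 0.1, so the data give no sign that the numbers pair the libraries. Without replicate 1 the count at an unadjusted p under 0.05 was 0 (5.93% of all genes). Without replicate 2 it was 2, *Cx3cr1* and *Tyrobp* (11.4%), and without replicate 3 it was 1, *Sall1* (10.2%), the lowest and highest being 0 and 2. Of 360 values of single genes over 12 alternatives, 330 kept their sign and 30 changed it, in 20 genes.

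The log2FC of *C1qa* was 0.00045 in the edgeR fit described above. It turned to -0.0058 with no filter, -0.0057 with at least 10 counts in every library and -0.0020 with relative log expression. It was -0.00034 with upper quartile scaling, -0.0021 with DESeq2 and -0.00052 with DESeq2 and no block. The log2FC of *Ptprc* was -0.00077 with DESeq2 and no block. The other changes of sign came from leaving out a replicate, and the lowest and highest values over the 3 omissions were -0.21 to 0.076 for *Cx3cr1*, -0.092 to 0.027 for *P2ry12*, -0.26 to 0.053 for *P2ry13*, -0.25 to 0.012 for *Gpr34*, -0.048 to 0.078 for *Csf1r*, -0.096 to 0.085 for *Fcrls*, -0.0069 to 0.17 for *Selplg*, -0.040 to 0.058 for *C1qa*, -0.023 to 0.019 for *C1qb*, -0.088 to 0.069 for *C1qc*, -0.12 to 0.15 for *Itgam*, -0.066 to 0.092 for *Trem2*, -0.0011 to 0.14 for *Ctss*, -0.095 to 0.12 for *Laptm5*, -0.029 to 0.36 for *Sall1*, -0.24 to 0.034 for *Spi1*, -0.16 to 0.11 for *Ptprc*, -0.059 to 0.18 for *Aif1*, -0.13 to 0.024 for *Apbb1ip* and -0.0059 to 0.11 for *Ly86*. Values that kept their sign but moved by over 1.5 times ranged from 0.059 to 0.28 for *Siglech*, 0.025 to 0.26 for *Cd68*, 0.045 to 0.20 for *Cd53*, -0.13 to -0.033 for *Tmem119*, -0.085 to -0.00088 for *Fcer1g* and -0.17 to -0.079 for *Lyz2*. The cause was not tested. At a mean of 63.5 counts, *Spi1* was the gene most limited by depth.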
